A study of Rattus norvegicus with 9 samples.

Results

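Cytosolic ribosomal protein genes were followed across artery samples of adult rat offspring. A row of the count tables was a member when its symbol had the form of a ribosomal protein name of the large (Rpl) or small (Rps) subunit, or was Rplp0, Rplp1, Rplp2 or Rpsa, and when its counts summed to at least 1000 over the 9 libraries. Where a symbol stood on several rows, the row with the highest total was taken. In all 69 of 30452 rows were members, 39 of the large and 30 of the small subunit. Of 72 symbols with such a name, 3 fell below the minimum (Rpl10l with 349 counts, Rpl3l with 298 and Rpl39l with 12), and the members nearest to it were Rpl35a with 1117 and Rpl37 with 2110 counts. Rows that carry an identifier in place of a symbol could not be matched, and ribosomal protein genes with no row under their symbol are not analysed here.

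The rats were offspring, aged 3 to 5 months, of dams on a standard diet that drank either ordinary water (control) or 20% sucrose water (high sucrose) while pregnant. Mesenteric artery was sampled in both arms, with replicates 1, 2 and 3 of the control and of the high-sucrose offspring, and pulmonary artery is represented by replicates 1, 2 and 4 of the controls. Strain and sex are not given in the labels, and they do not tie replicates to different animals or litters, so a p-value here reflects variation among samples that could be technical. In such tissue samples a smaller number of cells of a type and less RNA per cell cannot be told apart.

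Cytosolic ribosomes make the proteins encoded in the nucleus, and each holds a large subunit, which forms the peptide bond, and a small subunit, which reads the mRNA. Their proteins are made in matched amounts, and their mRNAs are known as TOP mRNAs because they begin with a cytosine followed by a run of pyrimidines, through which the mTOR pathway controls their translation. Growing and dividing cells make more ribosomes than resting cells, and the contractile smooth muscle of an adult artery wall divides rarely.

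Library totals ran from 10388231 to 15420546 counts, and the members took 2.25% to 4.81% of them. Members' own counts ran from 39 (Rpl35a in pulmonary replicate 2) to 30344 in a library, and apart from Rpl35a no member was below 156. Levels below are counts scaled to a common library size (CPM), on totals scaled by the trimmed mean of M values (TMM) over the 9 libraries. They are not divided by transcript length, so levels of different genes are not ranked against each other. Pulmonary replicate 4 stood apart as the highest library for 6 of 6 B and plasma cell, 5 of 5 T cell and 6 of 6 lung epithelium markers found, and pulmonary replicate 2 as the highest for 8 of 8 cardiac muscle markers. Summed smooth muscle markers (6 of 6 found, among them Acta2 and Myh11) were present in every library, at 3345 CPM in pulmonary replicate 4 and 10218 to 40194 CPM in the others.

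A pyrimidine run at the annotated start was more frequent among the members than in the promoter table as a whole, but the full TOP form, a C and then a pyrimidine run, was annotated in fewer than 1 of 2 matched members. RefSeq promoter sequences of build GRCr8 were matched by symbol for 55 of the 69 members, and the table holds 33469 promoters in all. The run of C and T that covers the annotated start site is in capitals in the 30-base windows below (20 bases before the start, 10 from it, 5′ to 3′). They are shown for the stalk genes and for the member with the smallest p in each comparison and subunit, though none of these genes passed a test. They are not printed as examples of the TOP form, which the annotated starts of Rplp2, Rps10 and Rps2 lack.
Rplp0: ctggtgaccgcaccgcaCTTCTCTCgccag
Rplp1: tgcgcgcaggcgcatgtgaTCCTTTCCTCa
Rplp2: atcttcctttcgccgccggaCgccgccgag
Rps10: gctgcgccgcgcacgCCCCTTCCTTTCCag
Rpl35a: gcgcggcgggtcttgCCTTCCTCTTTCCgc
Rps2: gCCTCCCTCTTCTTTTTCTTCgggaaaaca
The windows lie at chr12:46718381-46718410 (minus strand) for Rplp0, chr8:71290863-71290892 (minus strand) for Rplp1, chr1:205975901-205975930 (plus strand) for Rplp2, chr20:5700735-5700764 (minus strand) for Rps10, chr11:81235012-81235041 (minus strand) for Rpl35a and chr10:14251828-14251857 (plus strand) for Rps2. In Rplp2 the annotated start is a single C, and this start lies 323 bases inside the span that RefSeq gives for the gene. The starts of Rps10, Rpl35a and Rps2 lie 119, 73 and 7 bases inside their gene spans, and those of Rplp0 and Rplp1 at the edge. In Rps2 the run of 20 bases lies almost wholly before the annotated start.

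A cytosine at the start was annotated in 29 of the 55 members (52.7%) and in 24.1% of all promoters in the table. A C followed by at least 4 more pyrimidines began 20 of the 55 transcripts (36.4%, 15 of 32 large and 5 of 23 small subunit members), against 2.63% of all. A run of at least 5 pyrimidines covered the start in 34 members (61.8%), against 11.96% of all. The string CCGGAA, the core bound by ETS factors, was found on either strand of the 300-base window in 27 members (49.1%, against 15.0%), ATGGCG, a core of YY1 sites, in 15 (27.3%, against 9.98%), and GGGCGG, a core of Sp1 sites, in 33 (60.0%, against 33.1%). The strings TATAA (13 members, 23.6%, against 26.2%) and CCAAT (12 members, 21.8%, against 37.5%) were not more frequent than in the table. These are matches of letters and no measure of binding, and the windows do not depend on the expression values. Overlaps between different strings were not removed.

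Most members shared the library of their highest value and that of their lowest. Their summed level was 34406, 39466 and 31551 CPM in the control mesenteric, 30831, 29363 and 34526 CPM in the high-sucrose mesenteric and 36765, 24899.6 and 47235 CPM in the pulmonary libraries, each in replicate order. The highest and the lowest of the 9 sums were thus both pulmonary, replicates 4 and 2, which differed 1.90-fold, while the 3 control mesenteric sums differed at most 1.25-fold and the 3 high-sucrose sums 1.18-fold. All 69 members were higher in pulmonary replicate 4 than in pulmonary replicate 2, and for 58 of them replicate 1 lay in between. The top library of the 9 was pulmonary replicate 4 for 48 members (30 large, 18 small), and pulmonary replicate 2 the lowest for 59 (31 large, 28 small). Within the control mesenteric libraries replicate 2 was the highest for 53 of 69 members and replicate 3 the lowest for 48. Within the high-sucrose libraries replicate 3 was the highest for 53 members and replicate 2 the lowest for 45. The same ranks were not counted over all tested genes, so they cannot be called particular to the members. Pulmonary replicate 4 was also the highest library for 27 of 37 genes of ribosome assembly and rRNA transcription and 28 of 69 mitochondrial ribosomal proteins. Pulmonary replicate 2 was the lowest for 7 and 9 of these.

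**Figure D1:**
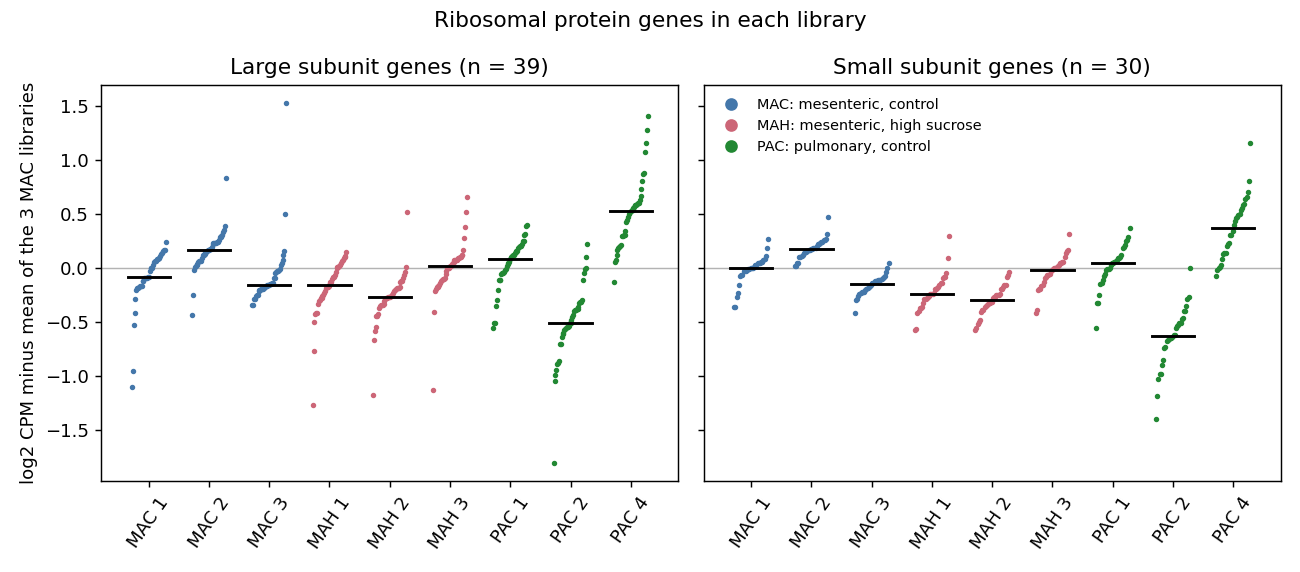
Each point is 1 member in 1 library, as log2 CPM minus the mean of that member over the 3 control mesenteric (MAC) libraries, with large subunit genes on the left, small subunit genes on the right and black bars at the medians. Nearly all points of pulmonary (PAC) replicate 4 lie above 0 and nearly all of pulmonary replicate 2 below 0 (65 of 69 below), while in high-sucrose (MAH) replicates 1, 2 and 3 there are 56, 67 and 34 of 69 members below 0.

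Spread within a group was smaller for the members than for all tested genes in mesenteric artery. The median SD of log2 CPM was 0.21 for members against 0.32 for all tested genes in the control mesenteric libraries and 0.16 against 0.31 in the high-sucrose libraries. In the pulmonary libraries it was 0.50 against 0.54. Over the 9 libraries the median range of log2 CPM was 1.01 for members (0.63 to 3.34) and 1.54 for all 14315 tested genes. Of the 69 members 64 had a mean level of at least 100 CPM, while all tested genes include rows with few counts and more counting noise. No background of matched level was made, and the part of level in these gaps was not tested.

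Rps4x, the X-linked S4 protein, was among the 5 members with the narrowest range, at 800.0, 919.8 and 694 CPM in the control mesenteric, 609, 719 and 798 CPM in the high-sucrose mesenteric and 909.6, 577 and 802 CPM in the pulmonary libraries. Rpl21 was at 483, 477 and 411 CPM in the control mesenteric, 341, 359 and 462 CPM in the high-sucrose mesenteric and 496, 320.1 and 481 CPM in the pulmonary libraries. Rpl5, which carries the 5S RNA into the large subunit together with Rpl11, was at 871, 988 and 688 CPM in the control mesenteric, 702, 704 and 751 CPM in the high-sucrose mesenteric and 1044, 677 and 1066 CPM in the pulmonary libraries. In all 3 of these genes pulmonary replicate 2 was the lowest of the 9 libraries, as it was for the sum. Rpl19, which forms a bridge between the subunits, was at 1021, 910.2 and 801 CPM in the control mesenteric, 718, 749.7 and 837 CPM in the high-sucrose mesenteric and 981, 664 and 1050.4 CPM in the pulmonary libraries. Rps3a was at 1515, 1658 and 1254 CPM in the control mesenteric, 1134, 1234 and 1444 CPM in the high-sucrose mesenteric and 1599, 1034 and 1394 CPM in the pulmonary libraries. Both Rpl19 and Rps3a were lowest in pulmonary replicate 2, and Rps3a was highest in control mesenteric replicate 2. Rps16 was at 1178, 1134 and 1038 CPM in the control mesenteric, 946, 987 and 1043 CPM in the high-sucrose mesenteric and 1334, 707 and 1122 CPM in the pulmonary libraries, and its highest value was that of pulmonary replicate 1. Rpsa, a small subunit protein also known as the laminin receptor precursor, was at 1347, 1228 and 1011 CPM in the control mesenteric, 1121, 1062 and 1145 CPM in the high-sucrose mesenteric and 1238, 985 and 1635 CPM in the pulmonary libraries, lowest in pulmonary replicate 2 and highest in replicate 4.

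**Figure D2:**
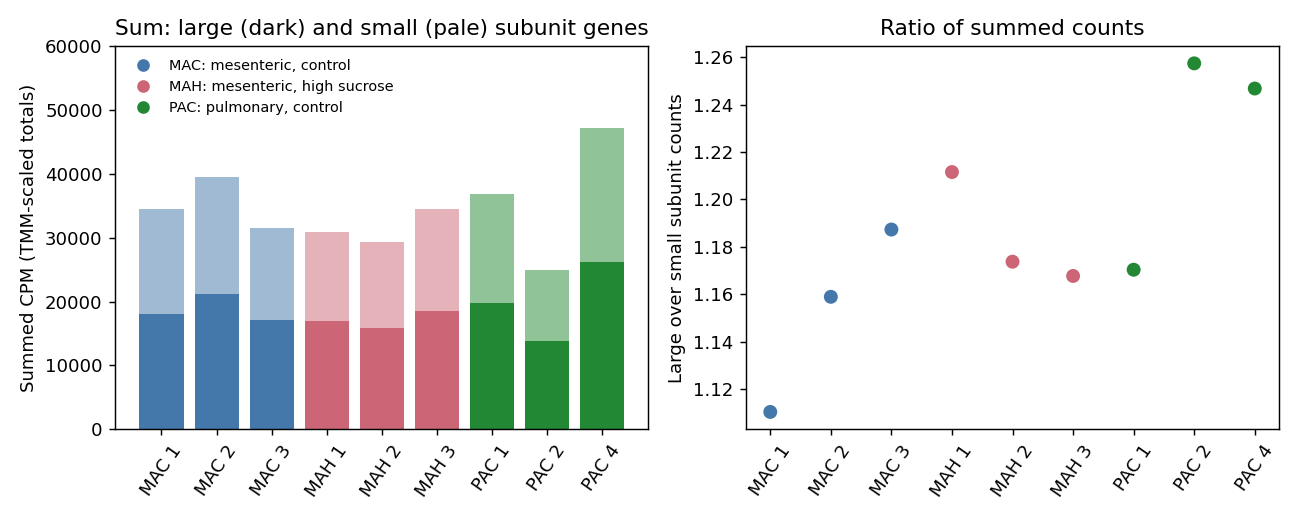
On the left, bars give the summed CPM of the 39 large (dark) and 30 small (pale) subunit members in each library; on the right, points give the ratio of summed large to summed small subunit counts, on an axis that does not start at 0. Control mesenteric replicate 2 and pulmonary replicate 4 have the highest sums, and pulmonary replicates 2 and 4 the highest ratios.

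The first comparison asked whether the dams' sucrose water left a difference in the mesenteric artery of the offspring. Most ribosomal protein genes had slightly lower values in the high-sucrose group, but none passed the test. Of 69 members, 63 had a log2 fold change below 0 (35 of 39 large, 28 of 30 small), where 49.7% of all 13995 tested genes did. The median of the members was −0.17 (large −0.13, small −0.19) and that of all tested genes 0.0024. The median was −0.082 without control replicate 2 (51 of 69 below 0) and also −0.082 without high-sucrose replicate 2 (54 of 69). Control replicate 2 had the highest sum of the mesenteric libraries. Its summed adventitial fibroblast markers were at 13352 CPM, against 1486 to 7598 CPM in the other 8 libraries, and Dcn alone gave 9343 CPM. It was the highest library for 4 of the 7 fibroblast markers, while Col1a1, Pi16 and Clec3b were lower there than in control replicates 1 and 3. Control replicate 2 also had the lowest summed smooth muscle markers of the mesenteric libraries. The part of these markers in the result was not tested. The summed level was 31573 ± 2660.1 CPM in the high-sucrose and 35141 ± 4008 CPM in the control libraries (SD, n = 3 each). The difference of −0.15 ± 0.12 (SE, log2) did not exceed the spread, with p = 0.3 by a two-sided exact permutation test (0.6 adjusted over 2 comparisons), where the smallest p that 3 against 3 libraries allow is 0.1. The sum in high-sucrose replicate 3 (34526 CPM) lay within the control range.

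By edgeR's quasi-likelihood test with Benjamini-Hochberg adjustment, 0 members and 0 of 13995 genes (0%) passed, with an adjusted p of 1.00 for every member. At an unadjusted p under 0.05 there were 2 members, Rps10 and Rpl35a, and 279 of all genes (1.99%). DESeq2 and limma-voom with quality weights also called 0 members. The 2 groups did not overlap for 6 members (8.70%), all lower in the high-sucrose group, while 6.05% of all genes did not overlap, 3.23% with lower and 2.82% with higher values. These 6 were Rps10, Rps23, Rps21, Rps9, Rpl23a and Rpl35a. The members were also scaled by their own sum, a setting chosen after the data were seen, which sets aside the difference in summed level. Then 36 of 69 members were below 0 (27.9% of all genes), the median was −0.020, 0 members had an unadjusted p under 0.05 (2.24% of all genes), and 4 small subunit members still did not overlap (5.80%, where 7.07% of all genes did not and 1.01% were lower), namely Rps10, Rps23, Rps21 and Rps9. This scaling passes the difference in summed level to the other genes, so the shares over all genes are no like background for the members.

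Of the 5 members with the smallest p-values, 4 were of the small subunit, and Rpl35a of the large subunit was the other. Rps10, a protein of the head of the small subunit that is ubiquitinated when ribosomes collide, was at 277, 298 and 257 CPM in the control mesenteric, 207, 194 and 208 CPM in the high-sucrose mesenteric and 290.3, 226 and 349.9 CPM in the pulmonary libraries. All 3 high-sucrose values lay below all 6 others, and the log2 fold change was −0.45 ± 0.17 SE, unadjusted p = 0.0348 and adjusted p = 1.00 by edgeR. As a share of the members' counts Rps10 was at 0.804, 0.754 and 0.813% in the control mesenteric, 0.672, 0.659 and 0.602% in the high-sucrose mesenteric and 0.790, 0.908 and 0.741% in the pulmonary libraries, again lowest in the high-sucrose libraries. Rps10l1, a row with a similar name outside the rule, was at 23.4, 32.1 and 26.2 CPM in the control mesenteric, 40.8, 36.3 and 63.1 CPM in the high-sucrose mesenteric and 27.9, 21.7 and 102 CPM in the pulmonary libraries. It was higher in each high-sucrose than in each control mesenteric library, opposite to Rps10, and how reads were divided between the rows is not given in the sources used here. Rps10 and Rps10l1 together were at 300.0, 329.8 and 283 CPM in the control mesenteric, 248, 229.8 and 271 CPM in the high-sucrose mesenteric and 318, 248 and 452 CPM in the pulmonary libraries. The high-sucrose sums still lay below the control mesenteric sums, at 0.820 of their mean, but the gap between the groups became narrow.

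Rps23, a protein of the decoding centre that bears on reading accuracy, was at 666, 785 and 555 CPM in the control mesenteric, 513, 449.6 and 506 CPM in the high-sucrose mesenteric and 757, 356 and 702 CPM in the pulmonary libraries (log2 fold change −0.45 ± 0.22 SE, unadjusted p = 0.0749 by edgeR). Its high-sucrose values lay below the control mesenteric values, and pulmonary replicate 2 was lower still. Rps28, mutated in some families with Diamond-Blackfan anaemia, was at 63.5, 58.5 and 39.4 CPM in the control mesenteric, 35.5, 37.8 and 46.1 CPM in the high-sucrose mesenteric and 35.9, 19.9 and 73.3 CPM in the pulmonary libraries (−0.44 ± 0.22 SE). High-sucrose replicate 3 lay above control replicate 3 there, so the groups overlapped. Rps21 was at 92.5, 101 and 85.8 CPM in the control mesenteric, 75.9, 70.1 and 85.1 CPM in the high-sucrose mesenteric and 96.3, 47.0 and 131 CPM in the pulmonary libraries (−0.27 ± 0.16 SE). Rps9, which lines the entry of the mRNA channel, was at 526, 546 and 447 CPM in the control mesenteric, 413, 402 and 440.5 CPM in the high-sucrose mesenteric and 504, 367 and 683 CPM in the pulmonary libraries (−0.27 ± 0.19 SE). In both Rps21 and Rps9 the highest high-sucrose library, replicate 3, came close to the lowest control, replicate 3.

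Among large subunit members, Rpl35a, a gene of Diamond-Blackfan anaemia, had the lowest fold change of all members, −1.65 ± 0.67 SE, with unadjusted p = 0.0434 and adjusted p = 1.00 by edgeR. It was at 4.64, 7.42 and 29.1 CPM in the control mesenteric, 4.12, 4.39 and 4.54 CPM in the high-sucrose mesenteric and 7.00, 2.80 and 24.5 CPM in the pulmonary libraries. A single control library, replicate 3, held most of the group's counts, and without it the log2 fold change was −0.47. Pulmonary replicate 4 was the other high library. The row Rpl35al1, outside the rule, was at 115, 168 and 136 CPM in the control mesenteric, 125, 117 and 158 CPM in the high-sucrose mesenteric and 151, 85.3 and 197 CPM in the pulmonary libraries, and did not share this pattern. Summed with Rpl35al1, Rpl35a no longer separated the groups, with 119.6, 176 and 166 CPM in control and 129, 121 and 162 CPM in high-sucrose mesenteric artery.

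Rpl22, a protein that ribosomes can lack and that T cell development needs, was at 177, 152 and 125 CPM in the control mesenteric, 121, 110.4 and 131 CPM in the high-sucrose mesenteric and 146, 106 and 204 CPM in the pulmonary libraries (log2 fold change −0.33 ± 0.19 SE). High-sucrose replicate 3 was above control replicate 3, so the groups overlapped. Rpl23a, at the exit of the peptide tunnel where the signal recognition particle docks, was at 848, 1005 and 916 CPM in the control mesenteric, 688, 724 and 835 CPM in the high-sucrose mesenteric and 946, 500.5 and 958 CPM in the pulmonary libraries (−0.30 ± 0.21 SE), with no overlap between the mesenteric groups. Rpl3, close to the peptidyl transferase centre, was at 946, 982 and 744 CPM in the control mesenteric, 766, 744 and 668 CPM in the high-sucrose mesenteric and 1021, 711 and 1268 CPM in the pulmonary libraries (−0.30 ± 0.22 SE). Rpl19 had a fold change of −0.24 ± 0.21 SE, and both genes overlapped between the groups through control replicate 3.

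The members with the highest fold changes in this comparison were within error of 0. Rpl17, which lines the peptide tunnel, was at 191, 659 and 402 CPM in the control mesenteric, 376, 529 and 482 CPM in the high-sucrose mesenteric and 289.7, 433 and 573 CPM in the pulmonary libraries (log2 fold change 0.15 ± 0.43 SE, and −0.20 without control replicate 1). Its lowest value in each group was that of replicate 1. Rps2, at the mRNA entry of the small subunit, was at 518, 525 and 478 CPM in the control mesenteric, 621, 421 and 522 CPM in the high-sucrose mesenteric and 522, 507 and 1134 CPM in the pulmonary libraries (0.041 ± 0.22 SE, and −0.098 without high-sucrose replicate 1). Rplp2 had 0.091 ± 0.32 SE, and −0.30 without high-sucrose replicate 3. The intervals of these 3 genes therefore hold both directions.

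**Figure D3:**
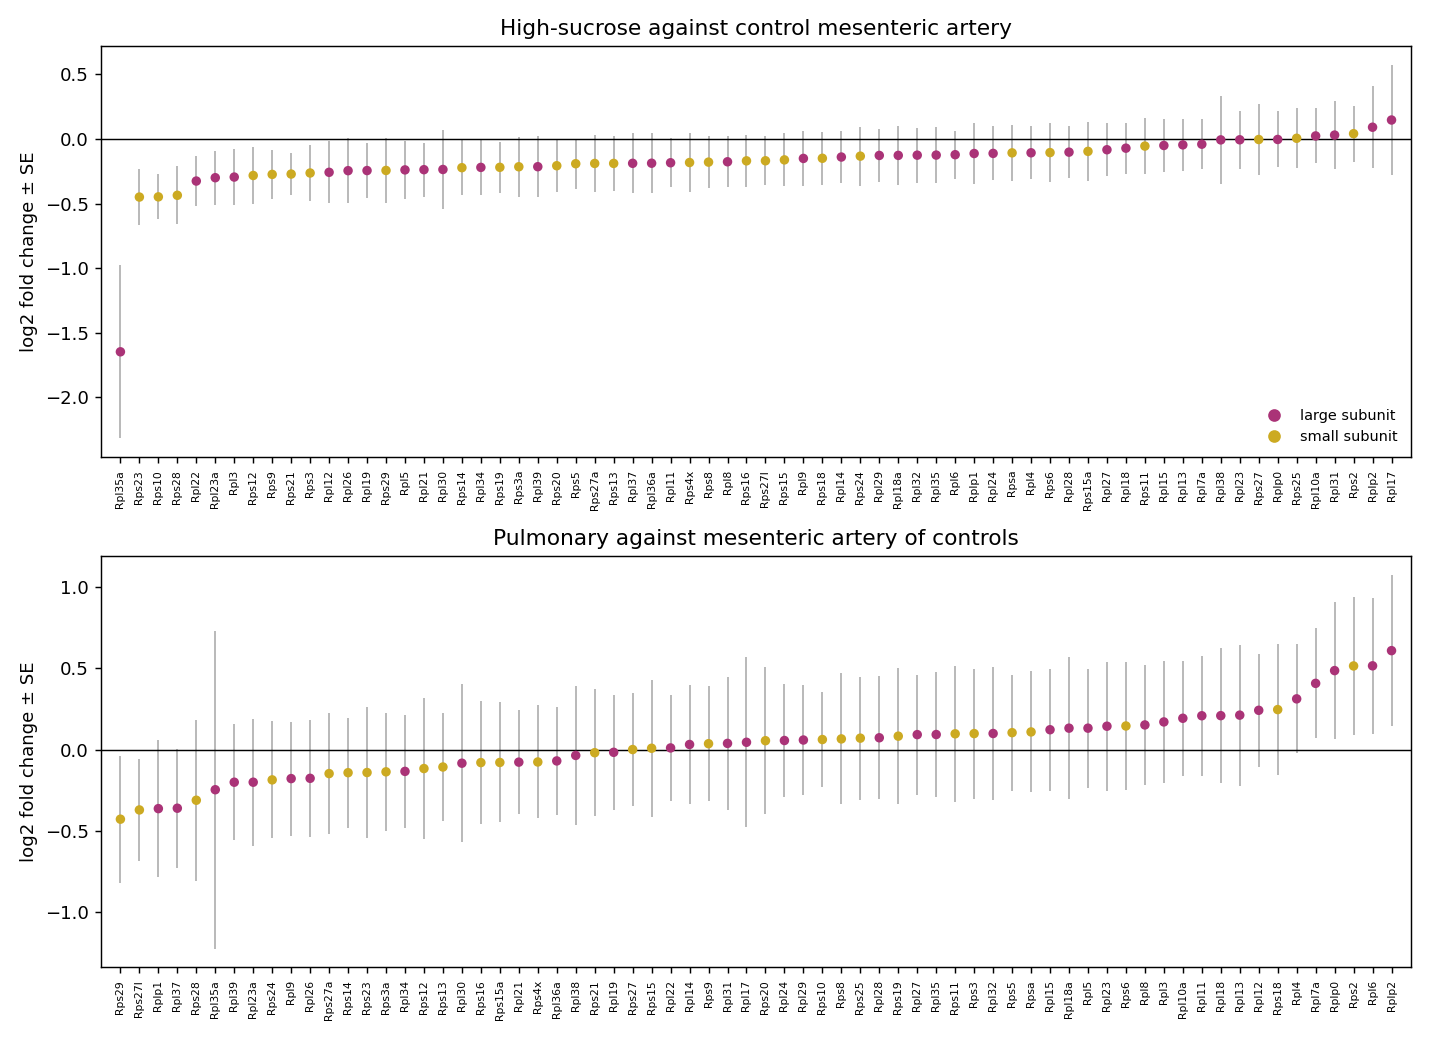
Log2 fold changes with SE of 68 of the 69 members, sorted by value, for high-sucrose against control mesenteric artery (top) and pulmonary against mesenteric artery of controls (bottom), with large and small subunit genes in different colours. In the top panel 62 of 68 points lie below 0 and Rpl35a stands apart at −1.65; in the bottom panel 27 of 68 lie below 0 and the error bars are wider (median SE of the points drawn 0.38 against 0.22).

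The second comparison was between the arteries of control offspring, pulmonary and mesenteric, and shares its mesenteric libraries with the first. The ribosomal protein genes showed no shared direction, and the 3 pulmonary libraries lay on both sides of the mesenteric ones. The summed level was 36299.9 ± 11175 CPM in pulmonary and 35141 ± 4008 CPM in mesenteric artery (SD, n = 3 each). Their difference was 0.0045 ± 0.28 (SE, log2; p = 1.0 by a two-sided exact permutation test, adjusted 1.0). Of 69 members, 28 were below 0 (13 large, 15 small), where 45.5% of all genes were, and the median was 0.045 (large 0.073, small −0.0089) against 0.058 for all genes. Without pulmonary replicate 4 there were 62 members below 0 with a median of −0.21, and without pulmonary replicate 2 there were 7 with a median of 0.26. Leaving only replicate 1 on the pulmonary side gave 30 below 0 and a median of 0.027.

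By edgeR's test 0 members and 2 of 14315 genes (0.0140%) passed. At an unadjusted p under 0.05 there were 0 members and 1221 genes (8.53%), and 0 members but 14.0% of genes did not overlap between the groups (7.54% lower and 6.50% higher in pulmonary artery). DESeq2 and limma-voom also called 0 members. Scaled by the members' own sum, 37 of 69 members were below 0 (41.8% of all genes), 0 had an unadjusted p under 0.05 (6.78% of all genes) and 11 members did not overlap (15.9%, where 9.05% of all genes did not), 9 lower in pulmonary artery (4.32% of all genes; Rps27l, Rpl37, Rps29, Rplp1, Rps24, Rps27a, Rpl34, Rps14 and Rpl36a) and 2 higher (4.74% of all genes; Rpl7a and Rpl12). None of these passed either (smallest adjusted p = 0.943 by edgeR). This scaling takes the spread of the summed level out of the members and passes it to the other genes. The share of 9.05% over all genes is thus no like background for the 15.9%, and under the main scaling that share was 14.0%.

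Markers of other cell types also differed between the pulmonary libraries, mostly in another order than the ribosomal protein sums, which were highest in replicate 4 and lowest in replicate 2. The summed B and plasma cell markers were at 3226 CPM in pulmonary replicate 4 and at most 41.2 CPM elsewhere, and the T cell markers at 351 and at most 12.8 CPM. Of the cell type lists only the summed T cell and the summed mesothelium markers had the order of the ribosomal protein sums in the pulmonary libraries. The mesothelium markers were at 83.6, 17.1 and 147 CPM in pulmonary replicates 1, 2 and 4. Of these markers only Msln had that order itself (50.4, 9.18 and 138 CPM). Upk3b, Lrrn4 and Wt1 were each highest in replicate 1 among the pulmonary libraries. Lung epithelium markers were at 678 CPM in pulmonary replicate 4, 61.2 CPM in replicate 2 and at most 1.83 CPM in the others, with all 6 at 0 in control mesenteric replicate 3. Cardiac muscle markers were at 22052 CPM in pulmonary replicate 2, 1928 CPM in replicate 4, 1077 CPM in replicate 1 and 33.8 to 111 CPM in the mesenteric libraries. In pulmonary replicate 1 nearly all of that sum was Actc1 (1017 CPM). The other cardiac markers there ran from 0.082 CPM (Nppa) to 52.2 CPM (Ryr2). Smooth muscle markers were lowest in the libraries with the highest ribosomal protein sums, 3345 CPM in pulmonary replicate 4 and 10218 CPM in control mesenteric replicate 2. Mitochondrially encoded genes took 13.9%, 20.1% and 27.1% of counts in pulmonary replicates 1, 2 and 4 and 12.8% to 20.0% in the mesenteric libraries. The part of these differences in the ribosomal protein levels was not tested.

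Of the 5 members with the highest fold changes, 4 were of the large subunit. Rplp0, the protein that anchors the stalk of the large subunit, was at 1025, 982 and 819 CPM in the control mesenteric, 988, 824 and 1006 CPM in the high-sucrose mesenteric and 967, 1008 and 1971 CPM in the pulmonary libraries (log2 fold change 0.49 ± 0.42 SE, adjusted p = 0.756 by edgeR). Rplp2, which binds that anchor as a dimer with Rplp1, was at 98.6, 77.7 and 103 CPM in the control mesenteric, 90.0, 61.7 and 146 CPM in the high-sucrose mesenteric and 85.6, 92.1 and 246 CPM in the pulmonary libraries (0.61 ± 0.47 SE, and −0.074 without pulmonary replicate 4). In both genes pulmonary replicate 4 was far above the rest, while pulmonary replicates 1 and 2 lay within the mesenteric range. Rpl6 was at 325, 362 and 372 CPM in the control mesenteric, 352, 293 and 329 CPM in the high-sucrose mesenteric and 394, 326 and 788 CPM in the pulmonary libraries (0.52 ± 0.42 SE, and 0.025 without pulmonary replicate 4). Rpl7a was at 383, 427 and 342 CPM in the control mesenteric, 408, 352 and 360.1 CPM in the high-sucrose mesenteric and 474, 384 and 668 CPM in the pulmonary libraries (0.41 ± 0.34 SE). For Rpl7a pulmonary replicates 1 and 4 lay above every mesenteric library, and replicate 2, at 384 CPM, lay among the control values.

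Of the small subunit, Rps2 had a fold change of 0.51 ± 0.43 SE, and of 0.020 without pulmonary replicate 4, since its other pulmonary values lay within the control range. Rps18, in the head of the small subunit, was at 434, 519 and 387 CPM in the control mesenteric, 418, 367 and 423 CPM in the high-sucrose mesenteric and 473, 336 and 774 CPM in the pulmonary libraries (0.25 ± 0.40 SE, and −0.14 without pulmonary replicate 4). The lower end held Rps29, a zinc-binding protein of the head, at 532, 579 and 460.3 CPM in the control mesenteric, 353, 399.8 and 575 CPM in the high-sucrose mesenteric and 417, 229.8 and 517 CPM in the pulmonary libraries (−0.43 ± 0.39 SE). Its value in pulmonary replicate 4 fell within the control range although most members were highest in that library. Rpl37, also zinc-binding, was at 23.5, 23.4 and 16.4 CPM in the control mesenteric, 14.7, 19.9 and 20.9 CPM in the high-sucrose mesenteric and 14.2, 11.2 and 23.7 CPM in the pulmonary libraries (−0.36 ± 0.37 SE), and Rps28 had −0.31 ± 0.50 SE, and 0.016 without pulmonary replicate 2. Pulmonary replicate 2 was the lowest of the 9 libraries for Rps29, Rpl37 and Rps28.

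The balance of the subunits did not differ beyond the spread between libraries. The ratio of large to small subunit counts was 1.11, 1.16 and 1.19 in the control mesenteric, 1.21, 1.17 and 1.17 in the high-sucrose mesenteric and 1.17, 1.26 and 1.25 in the pulmonary libraries. The groups overlapped in both comparisons. The differences in log2 ratio were 0.040 ± 0.033 (SE) for high sucrose against control and 0.088 ± 0.043 for pulmonary against mesenteric artery, with p = 0.4 and 0.2 by two-sided exact permutation tests (0.4 each when adjusted).

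Within the stalk the 3 genes did not keep a fixed proportion. Rplp1 was at 676, 850.3 and 642 CPM in the control mesenteric, 634, 567 and 804 CPM in the high-sucrose mesenteric and 504, 347 and 829 CPM in the pulmonary libraries (log2 fold change −0.11 ± 0.24 SE for high sucrose and −0.36 ± 0.42 SE for pulmonary artery). As a share of all members' counts Rplp0 was at 2.98, 2.49 and 2.60% in the control mesenteric, 3.21, 2.81 and 2.91% in the high-sucrose mesenteric and 2.63, 4.05 and 4.17% in the pulmonary libraries. The share of Rplp1 was at 1.97, 2.15 and 2.03% in the control mesenteric, 2.06, 1.93 and 2.33% in the high-sucrose mesenteric and 1.37, 1.39 and 1.75% in the pulmonary libraries. Pulmonary artery thus held less Rplp1 in every library relative to the other ribosomal protein genes, and more Rplp0 in replicates 2 and 4 but not in replicate 1. The count ratio of Rplp0 to Rplp1 was 1.52, 1.16 and 1.28 in the control mesenteric, 1.56, 1.45 and 1.25 in the high-sucrose mesenteric and 1.92, 2.90 and 2.38 in the pulmonary libraries. All 3 pulmonary ratios lay above all 6 mesenteric ratios. This ratio was chosen after its values were seen and carries no test. Both genes have a pyrimidine run at the start site, as printed above.

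Other shares of the pool that lay lower in pulmonary artery were those of Rps27l (0.0937, 0.0850 and 0.0934% in pulmonary and 0.130, 0.111 and 0.130% in control mesenteric libraries) and Rps24 (1.75, 1.82 and 1.65% and 2.02, 2.12 and 1.92%). Rps29 was at 1.14, 0.923 and 1.09% of the pool in pulmonary and 1.55, 1.47 and 1.46% in control mesenteric libraries, and high-sucrose replicate 1 (1.14%) fell near the pulmonary values. Rpl7a took 1.29, 1.54 and 1.41% in pulmonary and 1.11, 1.08 and 1.08% in control mesenteric libraries, and its share in high-sucrose replicate 1 lay above that in pulmonary replicate 1. Rps27a, which is made as a fusion with ubiquitin, took 1.50, 1.41 and 1.43% and 1.74, 1.67 and 1.56%. These gaps were small beside the 1.90-fold span of the pulmonary sums.

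**Figure D4:**
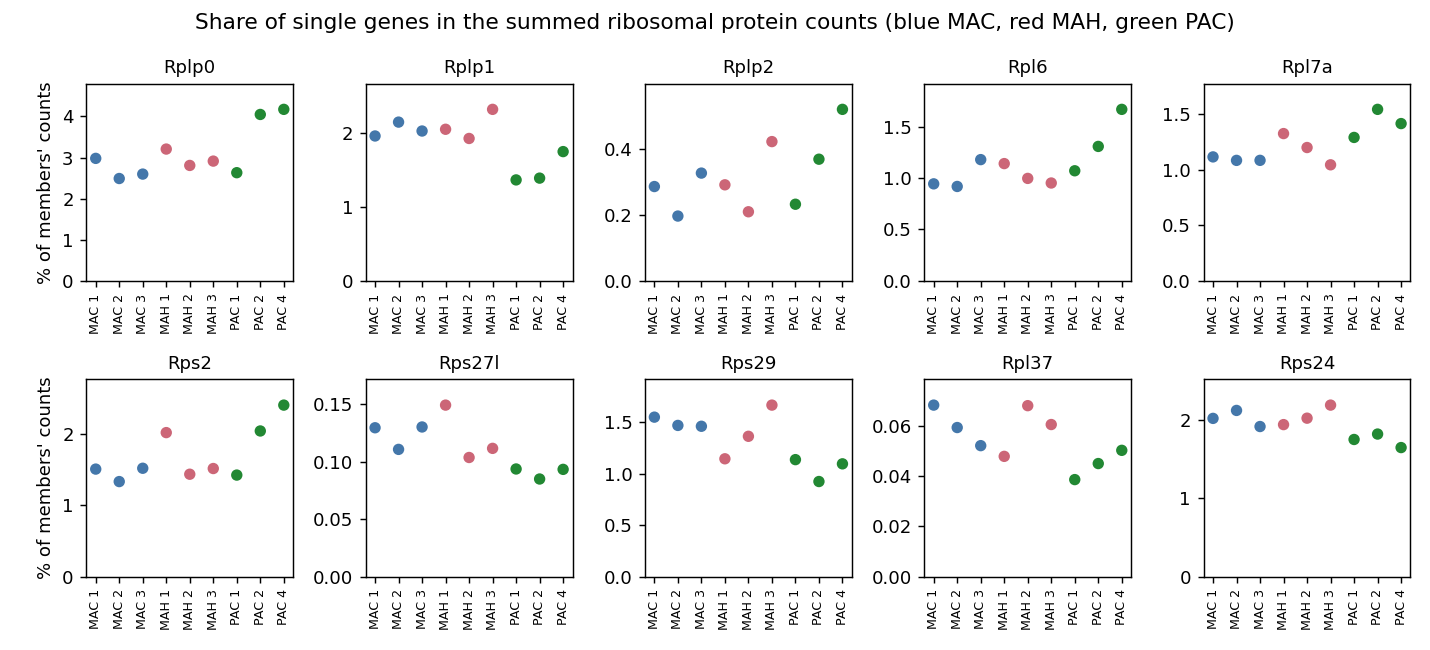
Each panel gives, for 1 gene, its percent of the summed ribosomal protein counts in each library, on an axis from 0, with control mesenteric libraries in blue, high-sucrose mesenteric in red and pulmonary in green. Rplp1, Rps27l, Rps29, Rpl37 and Rps24 are lower in all 3 pulmonary than in all 3 control mesenteric libraries, Rpl7a is higher in all 3, and Rplp0, Rplp2, Rpl6 and Rps2 are highest in pulmonary replicate 4.

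Several members have paralogs with separate expression. Rps27l, a paralog of Rps27 that p53 induces, was at 44.6, 43.7 and 41.1 CPM in the control mesenteric, 46.0, 30.4 and 38.5 CPM in the high-sucrose mesenteric and 34.4, 21.2 and 44.1 CPM in the pulmonary libraries, with a log2 fold change of −0.17 ± 0.19 SE for high sucrose and −0.37 ± 0.31 SE for pulmonary artery. Rps27 was at 156, 277 and 183 CPM in the control mesenteric, 175, 191 and 249 CPM in the high-sucrose mesenteric and 231, 151 and 235 CPM in the pulmonary libraries, with −0.0042 ± 0.27 SE and 0.00082 ± 0.35 SE, and was highest in control mesenteric replicate 2. Neither gene passed in either comparison, and the direction of Rps27 turned with the setting. Rpl3l, which takes the place of Rpl3 in heart and skeletal muscle and lies below the minimum of the rule, had 106 and 148 counts in pulmonary replicates 2 and 4 (7.60 and 9.61 CPM), 3 counts in pulmonary replicate 1 and 1 to 20 counts in the mesenteric libraries. The libraries with the most Rpl3l were those with 22052 and 1928 CPM of summed cardiac markers, and the part of such cells in this level was not tested. Rpl3 itself had a fold change of 0.17 ± 0.38 SE in pulmonary artery. Rpl39l, the paralog of Rpl39 known from testis, had at most 4 counts in any library, and Rpl39 was at 169, 240.1 and 171 CPM in the control mesenteric, 156, 140.2 and 204 CPM in the high-sucrose mesenteric and 184, 105 and 215 CPM in the pulmonary libraries (−0.21 ± 0.24 SE and −0.20 ± 0.36 SE).

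A total of 16 members stood on more than 1 row (43 rows), and for some the rows did not move together. Rpl30, which was among the members with the widest range, was at 152, 222 and 308 CPM in the control mesenteric, 236, 149.7 and 193 CPM in the high-sucrose mesenteric and 202, 109.7 and 329 CPM in the pulmonary libraries on its first row, a 3.00-fold span. A second row of Rpl30 held 58.3%, 52.2% and 16.2% of the symbol's reads on both rows in the control mesenteric, 17.4%, 54.2% and 53.2% in the high-sucrose and 52.4%, 53.7% and 21.3% in the pulmonary libraries. The share was low in 1 library of each group, and with both rows summed the span was 1.96-fold. For Rpl12, at the base of the stalk, the second row held 19.3%, 30.2% and 35.7%, then 18.8%, 35.5% and 34.5%, then 20.7%, 33.7% and 37.1%, in the same order, so that replicate 1 was low in every group. Replicate 1 was also the lowest library of each group for Rpl17. The second row of Rps4x took 25.4% to 34.9%. Which copies these rows stand for is not given in the sources used here, and reads shared by near-identical copies make the levels of such members uncertain.

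**Figure D5:**
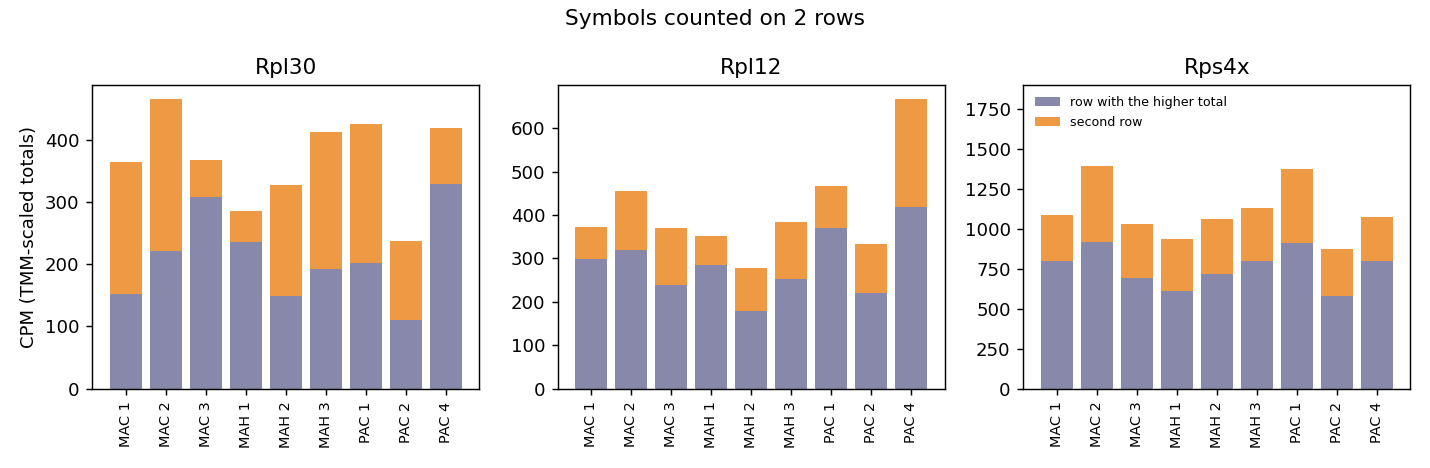
Stacked bars give the CPM of the row with the higher total and of the second row for 3 symbols in each library. For Rpl30 the second row shrinks in control mesenteric replicate 3, high-sucrose replicate 1 and pulmonary replicate 4, while the stacked height varies less; for Rps4x the split is nearly constant.

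Genes that work with the ribosomal proteins were taken from lists and described by counts, and 0 of them passed in either comparison by edgeR. Ribosomal protein genes outside the symbol rule (4 of 6 found) had 3 of 4 lower in the high-sucrose group with a median of −0.17, and 3 of 4 higher in pulmonary artery with 0.13. The pulmonary direction turned without pulmonary replicate 4 (1 of 4 higher, median −0.19), by limma-voom (1 of 4, −0.16), with the replicate block (0 of 4, −0.17) and with pulmonary replicate 1 alone (1 of 4, −0.050). In high-sucrose artery the median was −0.072 without control replicate 2, with 2 of 4 lower. Fau, which encodes the small subunit protein S30, was at 434, 449 and 397 CPM in the control mesenteric, 317, 314 and 411 CPM in the high-sucrose mesenteric and 284, 275 and 515 CPM in the pulmonary libraries. Rack1, a signalling scaffold on the small subunit head, was at 576, 678 and 543 CPM in the control mesenteric, 586, 548 and 576 CPM in the high-sucrose mesenteric and 773, 511 and 1017 CPM in the pulmonary libraries. Fau thus lay below all mesenteric values in pulmonary replicates 1 and 2, while Rack1 in pulmonary replicates 1 and 4 lay above all mesenteric values.

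Genes of ribosome assembly and of rRNA transcription did not share the sign of the ribosomal protein genes in high-sucrose artery. There 30 of 37 tested were higher (median 0.15), while 63 of 69 ribosomal protein genes were lower, and in pulmonary artery 32 of 37 were higher (median 0.23). Of all tested genes 49.7% were lower in the first and 45.5% in the second comparison. Without high-sucrose replicate 1, 18 of 37 were higher with a median of −0.0023, and with pulmonary replicates 2 and 4 both left out 16 of 37 were higher with −0.030. The pulmonary count was 20 of 37 with a median of 0.036 without pulmonary replicate 4 alone, 15 of 37 with −0.075 with the replicate block, and 27 of 37 with 0.078 by limma-voom. Rrp12, needed for export of both subunits, was at 15.8, 14.2 and 14.8 CPM in the control mesenteric, 38.0, 14.8 and 19.1 CPM in the high-sucrose mesenteric and 16.4, 24.3 and 42.2 CPM in the pulmonary libraries. Polr1a, the largest subunit of RNA polymerase I, was at 16.0, 16.7 and 16.7 CPM in the control mesenteric, 28.9, 17.0 and 17.9 CPM in the high-sucrose mesenteric and 21.5, 25.8 and 45.5 CPM in the pulmonary libraries. In both genes high-sucrose replicate 1 and pulmonary replicate 4 were the highest libraries of their groups. At an unadjusted p under 0.05 there were 0 of 37 genes for high sucrose and 1, Polr1a, for pulmonary artery, where 1.99% and 8.53% of all tested genes had such a p, so neither count exceeded the share over all genes.

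Regulators of TOP mRNA translation and ribosome synthesis had 14 of 24 tested higher in both comparisons, with medians of 0.024 and 0.037. Eif4ebp2, a repressor of the cap-binding protein that mTOR inactivates, was at 20.7, 19.9 and 16.8 CPM in the control mesenteric, 26.7, 25.0 and 27.6 CPM in the high-sucrose mesenteric and 26.7, 46.6 and 33.2 CPM in the pulmonary libraries. All 3 high-sucrose values lay above the control values, with a log2 fold change of 0.47 ± 0.17 (SE; unadjusted p = 0.0271, adjusted p = 1.00 by edgeR). In pulmonary artery its fold change was 0.89 ± 0.27 (adjusted p = 0.472), again with no overlap. At an unadjusted p under 0.05 there were 1 of 24 regulators for high sucrose and 2 for pulmonary artery. Of all tested genes 1.99% and 8.53% had such a p, and 6.05% and 14.0% did not overlap. Larp1, which binds the TOP sequence at the cap, was at 38.0, 34.7 and 33.9 CPM in the control mesenteric, 44.5, 48.2 and 38.0 CPM in the high-sucrose mesenteric and 46.7, 56.7 and 46.8 CPM in the pulmonary libraries, with fold changes of 0.30 ± 0.16 and 0.49 ± 0.20. Its lowest high-sucrose value, in replicate 3, equalled the highest control value within rounding. Myc, a transcription factor that drives ribosome synthesis, was at 32.0, 166 and 138 CPM in the control mesenteric, 86.4, 101 and 139 CPM in the high-sucrose mesenteric and 17.5, 32.8 and 56.7 CPM in the pulmonary libraries. Control replicate 1 lay far below control replicates 2 and 3, and the pulmonary range held that value.

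Translation factors had 11 of 22 higher in the high-sucrose group and 12 of 23 in pulmonary artery, with medians of 0.0028 and 0.031. The row of Eef1a1 lay near the floor in every library, from 0.464 CPM in control mesenteric replicate 3 to 2.36 CPM in control mesenteric replicate 2. Whether reads of this gene stand on other rows was not tested. In pulmonary artery 8 of 23 were higher without pulmonary replicate 4 (median −0.11) and by limma-voom (−0.14), and 7 of 23 with the replicate block (−0.13). Eef2, the elongation factor that moves the ribosome along the mRNA, was at 839, 630.4 and 853 CPM in the control mesenteric, 845, 769 and 916 CPM in the high-sucrose mesenteric and 887, 1316 and 2031 CPM in the pulmonary libraries (0.87 ± 0.43 for pulmonary artery, SE). Pulmonary replicates 2 and 4 lay above all other libraries, a pattern that the ribosomal protein sums did not show, since pulmonary replicate 2 had the lowest of these. Eef1a2, the elongation factor form of muscle and neurons, was at 11.99, 0.698 and 2.32 CPM in the control mesenteric, 3.74, 7.35 and 1.45 CPM in the high-sucrose mesenteric and 2.88, 170.2 and 8.51 CPM in the pulmonary libraries, with its highest value in pulmonary replicate 2, the library with the highest cardiac markers.

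Mitochondrial ribosomal proteins, encoded in the nucleus for the separate ribosome of mitochondria, had 48 of 69 lower in the high-sucrose group (median −0.062) and 49 of 69 higher in pulmonary artery (median 0.12). The pulmonary count was 36 of 69 (median 0.028) without pulmonary replicate 4, 38 of 69 (0.027) without control mesenteric replicate 2 and 33 of 69 (−0.0056) by limma-voom, and with pulmonary replicate 1 alone it turned to 17 of 69 (−0.17). The high-sucrose median ran from −0.18 without control replicate 2 to −0.030 without control replicate 3. Pulmonary replicate 2 was the highest library for 20 and pulmonary replicate 4 for 28 of 69. Mrpl23 was at 34.2, 38.6 and 37.6 CPM in the control mesenteric, 27.7, 23.8 and 29.0 CPM in the high-sucrose mesenteric and 29.4, 24.0 and 41.4 CPM in the pulmonary libraries, and lay lower in all 3 high-sucrose than in all 3 control mesenteric libraries (−0.46 ± 0.16, SE; unadjusted p = 0.0259, adjusted p = 1.00 by edgeR). It was the 1 gene of these 69 with an unadjusted p under 0.05 for high sucrose, where 1.99% of all tested genes had such a p. Of all tested genes 6.05% did not overlap between these groups.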

How the data were processed

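For each of the 9 libraries the authors deposited raw gene counts, whole numbers without normalization, from poly(A)-selected RNA per the labels' protocols. The build was rn7 per the submitters' processing notes. Which aligner, counter, gene models and strand setting were used is not given in the sources used here. Members were picked by symbol and total count, and the members, gene lists and tests were chosen with earlier results of these data known.

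Each comparison was fitted over all genes of its 6 libraries with edgeR 4.0.16 (R 4.3.3), with filterByExpr, TMM factors and the robust quasi-likelihood F test, and p-values were adjusted over all genes tested. A call needed an adjusted p under 0.05. The script was tested on simulated data. Standard errors of fold changes come from the F statistic. Log2 levels used 0.1 CPM as pseudocount. Sums and ratios were compared by exact permutation over libraries. Genes were named by a rule: the 5 smallest p-values of each subunit, the 3 highest and 3 lowest fold changes of each comparison, the widest and narrowest ranges, the highest and lowest mean CPM, paralogs and stalk genes. Alternatives were other size factors, DESeq2 1.42.0, limma-voom 3.58.1 with quality weights, filters, all 9 libraries in 1 fit, the replicate block, each library left out, and, chosen after seeing the data, scaling by the members' sum and pulmonary replicate 1 alone. Counts of same-group libraries differed by far more than sampling noise (a chi-square of 45.7 to 332 for each degree of freedom), so no library was counted as a repeat of another. Values of 1 member, which stays in the counts, sums and medians over members, are not reported here.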

Additional observations from a re-analysis of the deposited data

How the results depend on the processing

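No ribosomal protein gene passed in either comparison under any alternative run. The count of all genes called between pulmonary and mesenteric artery did depend on the tool, with 2 by edgeR, 457 by DESeq2, 33 by limma-voom, 38 with all 9 libraries in 1 fit, 36 with the replicate block and 22 without pulmonary replicate 4. Between high-sucrose and control mesenteric artery it was 0 by edgeR and 3 by DESeq2. In that comparison the count of members below 0 was 51 to 66 and the median −0.25 to −0.082 with 1 library left out. Scaling by the members' sum gave 36 and −0.020, since it removes the shared part by construction. In pulmonary artery the count below 0 was 65 with the replicate block, 58 by limma-voom, and 7 to 62 with 1 library left out; the summed level differed by −0.0060 on plain library totals and by −0.21 to 0.25 with 1 library left out. In the block fit control mesenteric replicate 3 and pulmonary replicate 4 had no partner of the same number. The block estimates for pulmonary artery, also those of the related lists, thus rest on replicates 1 and 2. The cause of the other changes was not tested. Whether the replicate numbers pair the samples is not given in the labels. Deviations of same-numbered libraries correlated at 0.20, −0.28 and 0.12 in mesenteric artery and at 0.17 and −0.17 between pulmonary and mesenteric artery. These values have mixed signs and cannot settle whether the numbers mark pairs.

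Signs of single genes near 0 turned. For high sucrose, scaling by the members' sum gave 0.15 for Rplp0, 0.038 for Rplp1 and 0.16 for Rps27, limma-voom gave 0.046 for Rplp0, −0.10 for Rplp2 and 0.065 for Rps27, and the block gave 0.025 for Rps27. With 1 library left out the ranges were −0.20 to 0.64 for Rpl17, −0.095 to 0.092 for Rplp0, −0.27 to 0.021 for Rplp1, −0.30 to 0.35 for Rplp2, −0.098 to 0.18 for Rps2 and −0.17 to 0.27 for Rps27. For pulmonary artery the block gave −0.19 for Rpl3, −0.040 for Rplp0, −0.27 for Rps18, −0.034 for Rps2 and −0.17 for Rps27. Limma-voom gave −0.031 for Rplp2 and −0.036 for Rps18. Without a filter Rps27 was at −0.018, and scaled by the members' sum at −0.0042. Pulmonary replicate 1 alone, assumed to vary like the mesenteric libraries, gave −0.14 for Rplp2 and 0.16 for Rps4x. With 1 library left out the ranges were −0.041 to 0.36 for Rpl3, −0.42 to 0.037 for Rpl39, −0.074 to 0.86 for Rplp2, −0.14 to 0.48 for Rps18, −0.18 to 0.27 for Rps27, −0.95 to 0.016 for Rps28 and −0.23 to 0.081 for Rps4x. Low counts limit Rpl35a, with 39 counts in pulmonary replicate 2, more than the other members. How reads were divided between Rpl35a and Rpl35al1 is not given in the sources used here. For the other members the spread between libraries sets the precision.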

Other observations

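Rows named as copies or pseudogenes of ribosomal protein genes, outside the rule, also carried counts. Rps18l1 was at 44.4, 46.9 and 32.6 CPM in the control mesenteric, 29.1, 26.5 and 34.5 CPM in the high-sucrose mesenteric and 35.2, 28.2 and 68.2 CPM in the pulmonary libraries. Rps27a-ps1 ran from 34.5 CPM in pulmonary replicate 2 to 67.0 CPM in pulmonary replicate 4, and Rpl32-ps3 from 14.6 to 28.6 CPM in the same libraries, so these rows had their lowest and highest values where most ribosomal protein genes did. Rpl10l, a copy of Rpl10 best known from the male germline, was between 1.64 and 4.96 CPM and did not follow that order, with its lowest value in high-sucrose replicate 3 and its highest in high-sucrose replicate 1.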
